A study of Homo sapiens with 12 samples.

Results

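The MYC, MAX and MLX network is a family of basic helix-loop-helix leucine zipper transcription factors, described here with a pair of its best known target genes in AsPC-1 cells, an established human pancreatic adenocarcinoma line. Its members were taken as 10 named genes: MYC, MAX, MXI1, MXD1, MXD4, MNT, MLX, MLXIP, TXNIP and ARRDC4. Gene identifiers in the count tables were paired with symbols for 51996 of 57820 identifiers, and 9 of the 10 members were found in this way. TXNIP was not paired with an identifier and was not analysed here. The cells were transfected with siControl, a scrambled control siRNA, or with siARNT, which targets ARNT. The next day they were split and held at 21% O2 (normoxia) or at 1% O2 for 24 h (hypoxia), and all were harvested 48 h after transfection. This gave 4 groups of 3 libraries, lettered A, B and C: normoxia with siControl, normoxia with siARNT, hypoxia with siControl and hypoxia with siARNT. All groups share the line and the transfection, and the labels name neither the siRNA sequence nor further siRNAs, so that p-values measure the spread between wells of 1 line with 1 named knockdown. The study asked which transcripts and alternative isoforms depend on the hypoxia-inducible factor HIF, whose constitutive subunit is ARNT.

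MYC binds the E-box CACGTG as a dimer with MAX and activates genes of ribosome production, nucleotide synthesis and cell growth. MXI1, MXD1, MXD4 and MNT compete with MYC for MAX, occupy the same E-boxes and recruit SIN3 and histone deacetylases, which represses those genes. MLX is the partner in a parallel branch: with MLXIP, also called MondoA, it responds to glucose phosphates and activates TXNIP and ARRDC4, alpha-arrestins that restrain glucose uptake. HIF in turn binds the core sequences ACGTG and GCGTG of hypoxia response elements, and MXI1 is known as a gene that HIF induces.

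Promoter sequences from RefSeq (GRCh38.p14; 250 bases before to 50 after each annotated start) were at hand for 8 members in 11 windows, and none is given for MYC. They are shown because the same CACGTG stood in front of a member that passed the test for siARNT and of members that did not in the fit used here. The E-box CACGTG was found in 4 of the 11 windows, those of ARRDC4, MLX, MNT and MXD4, against 7.26% of 35116 windows of the same length over all genes. Each stretch below lies upstream of the first annotated exon of its own gene in GENCODE 29, reads 5′ to 3′ on the gene's strand, and has the E-box in capitals.
ARRDC4 (chr15:97960481-97960510, plus strand): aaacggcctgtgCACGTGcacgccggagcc
MLX (chr17:42567038-42567067, plus strand): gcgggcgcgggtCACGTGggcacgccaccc
MNT (chr17:2401236-2401265, minus strand): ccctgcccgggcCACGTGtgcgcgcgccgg
MXD4 (chr4:2262330-2262359, minus strand): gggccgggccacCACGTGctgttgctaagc

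MXI1 has 3 annotated starts, and its windows held no CACGTG. In the next pair of sequences, which lie within MXI1 outside its annotated exons, capitals mark GCGTG and CACGT, the latter being ACGTG on the other strand.
MXI1, start 2 (chr10:110210081-110210140, plus strand): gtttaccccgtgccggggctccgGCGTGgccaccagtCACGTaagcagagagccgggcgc
MXI1, start 3 (chr10:110225846-110225905, plus strand): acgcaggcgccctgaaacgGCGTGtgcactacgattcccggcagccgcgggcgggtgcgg
Either core, ACGTG or GCGTG on either strand, counting the ACGTG inside an E-box, was present in 48.4% of all windows and in 8 of the 11 member windows. The first MXI1 window, the MXD1 window and 1 of both MAX windows held neither these cores nor an E-box. ARRDC4 held GCGTG at 4 positions on either strand beside its E-box. No member window held a pair of exact CACGTG copies 5 bases apart, an arrangement present in 0.0057% of all windows. Pairs that depart from these letters were not searched. These are matches of letters and show no binding.

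The libraries held between 38525512 and 84337166 reads assigned to genes. ARNT itself was lower with siARNT in every library, by 2.22 on the log2 scale (SE 0.07) in normoxia and by 2.17 (SE 0.07) in hypoxia, in edgeR's quasi-likelihood test. The hypoxia-induced genes CA9 and EGLN3 rose in siControl cells by 3.27 and 3.29 log2 units, while in siARNT cells CA9 changed by 0.24 without passing the test and EGLN3 rose by 0.71. CA9 was already higher with siARNT in normoxia, at 22.4 against 12.0 CPM. VEGFA, another hypoxia-induced gene, rose by 1.17 in siControl cells, and its level in hypoxia differed by -0.22 with siARNT, which did not pass (adjusted p = 0.26). All 8 epithelial markers were at or above 1 CPM (counts scaled to library size) in each group, while the summed level of blood cell markers was at most 0.775 CPM and that of endothelial markers at most 0.966 CPM in any library, with CD3E at 0. Of the 4 fibroblast markers 1, LUM, was above 1 CPM. COL1A1, COL3A1 and DCN averaged at most 0.109, 0.225 and 0.91 CPM in any group. The sum of the 4 was 401 to 455 CPM in normoxia with siControl and 335 to 407 with siARNT. In hypoxia it was 567 to 593 with siControl and 366 to 468 with siARNT. This sum was almost all LUM and moved with the groups, and its part in the results below was not tested. Libraries differed in how strongly counts depended on the GC content of genes, with normoxia siARNT B steepest at 0.424 log2 units per 10 GC points and normoxia siControl A lowest at -0.205.

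All 9 members were expressed and passed the filter on low counts, which kept 16999 genes. Levels between genes were compared as CPM per kilobase of exon. In normoxia with siControl, MYC had the highest level at 40.7 ± 0.991 (SD, n = 3), followed by MXD1 at 16.9 ± 0.89 and by MXI1 at 12.6 ± 0.525. MLX, at 12.2 ± 0.629, overlapped MXI1. MAX followed at 7.48 ± 0.347, then MLXIP at 5.17 ± 0.238 and ARRDC4 at 4.79 ± 0.387, whose libraries overlapped each other. MNT at 1.44 ± 0.165 and MXD4 at 0.913 ± 0.0956 were lowest. MYC transcript per kilobase was thus above that of each partner and antagonist in this group, and MAX, the shared partner, was below MYC, MXD1, MXI1 and MLX. In hypoxia with siControl the order changed at the top: MXI1 stood at 27.2 ± 1.19 and MXD1 at 24.3 ± 1.86, overlapping each other, below MYC at 33.5 ± 1.13 and above MLX at 13.2 ± 0.589. In hypoxia with siARNT, MXD1 at 13.9 ± 1.06 was second, and MXI1 at 11.1 ± 1.06 overlapped MLX at 11.9 ± 0.634.

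**Figure D1:**
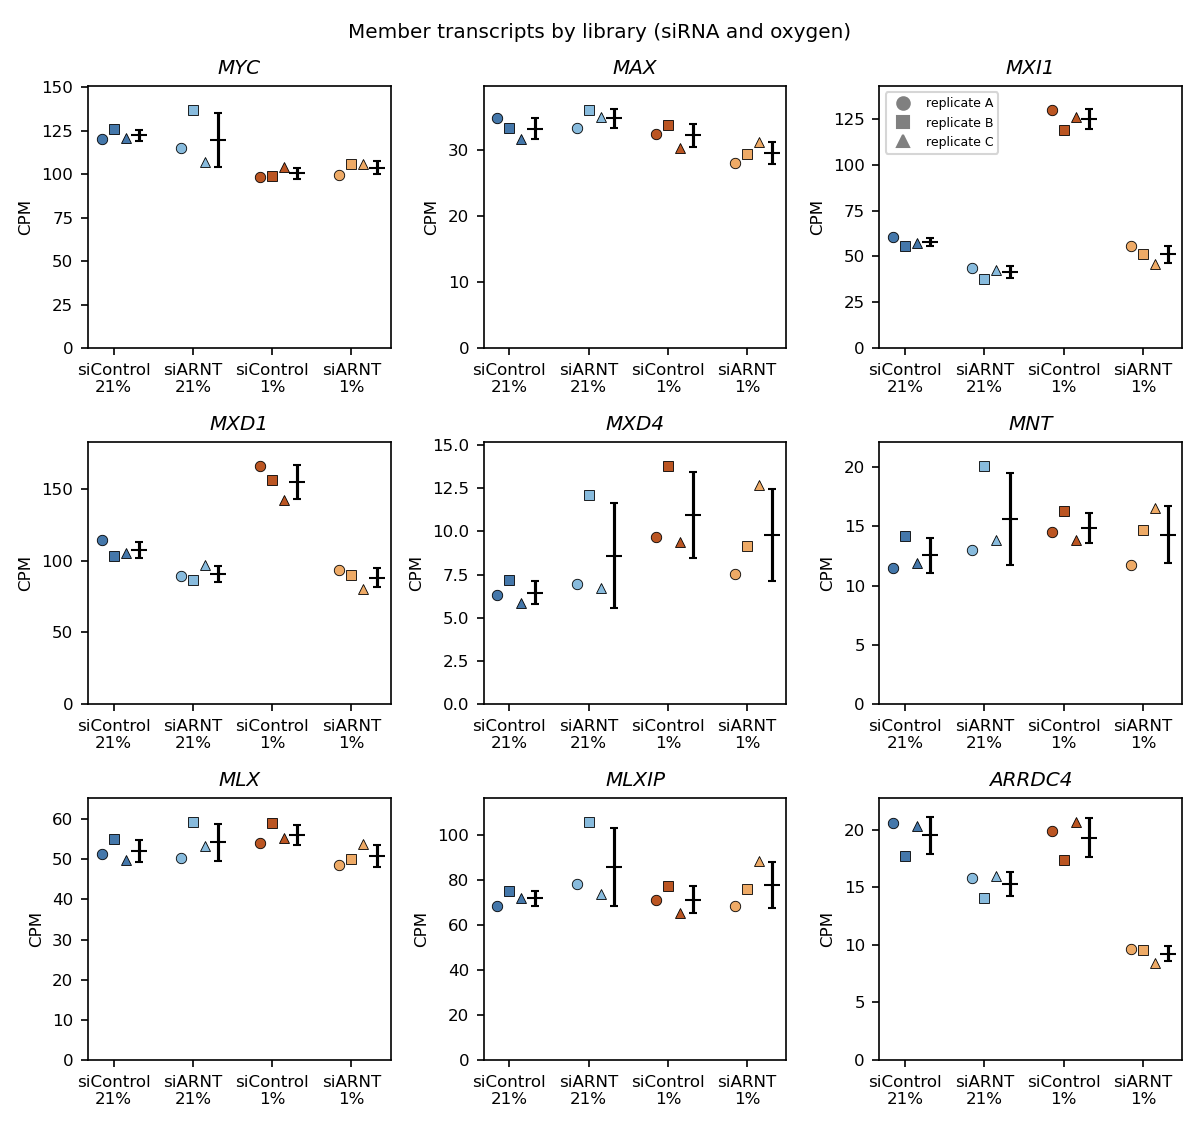
Level in CPM (vertical axes from 0) of the 9 members in each of 12 libraries, by siRNA and oxygen; symbols are replicates A, B and C, and the bar beside them is the mean ± SD (n = 3). The 3 siControl libraries at 1% O2 lie between 119 and 130 CPM for MXI1, above all others, while the 3 siARNT libraries at 1% O2 lie lowest for ARRDC4, between 8.47 and 9.64 CPM.

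Hypoxia changed 4 of the 9 members in siControl cells, against 25.3% of all genes tested in that comparison (10.4% higher and 14.9% lower; adjusted p under 0.05, edgeR quasi-likelihood test with Benjamini-Hochberg adjustment over all genes). MXI1, MXD1 and MXD4, 3 of the 4 antagonists among the members, rose, and MYC fell. In siARNT cells ARRDC4 alone passed the test for hypoxia, and it fell, against 4.09% of all genes (2.21% higher and 1.89% lower). With siARNT in normoxia MXI1 and ARRDC4 fell, against 20.2% of all genes (9.42% higher and 10.8% lower), and with siARNT in hypoxia MXI1, MXD1 and ARRDC4 fell, against 29.1% (14.4% higher and 14.7% lower). The hypoxia change differed between the siRNAs for the same 3 genes by the test of the difference, against 4.69% of all genes (2.49% with a higher and 2.19% with a lower value in siARNT). The libraries of both groups did not overlap for 4 of the 9 members for hypoxia in siControl, against 46.8% of all genes. For hypoxia in siARNT this held for 4 members against 22.2%, for siARNT in normoxia for 3 against 46.5%, and for siARNT in hypoxia for 4 against 40.3%. In these bulk samples fewer cells with a transcript and less transcript per cell cannot be told apart. The comparisons share groups, for example hypoxia with siControl in 2 of them, so they are given side by side and not as independent results. The median log2 change over the members was 0.11 for hypoxia in siControl, -0.13 for hypoxia in siARNT, 0.06 for siARNT in normoxia and -0.14 for siARNT in hypoxia, and over all genes it lay between -0.04 and 0.02.

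**Figure D2:**
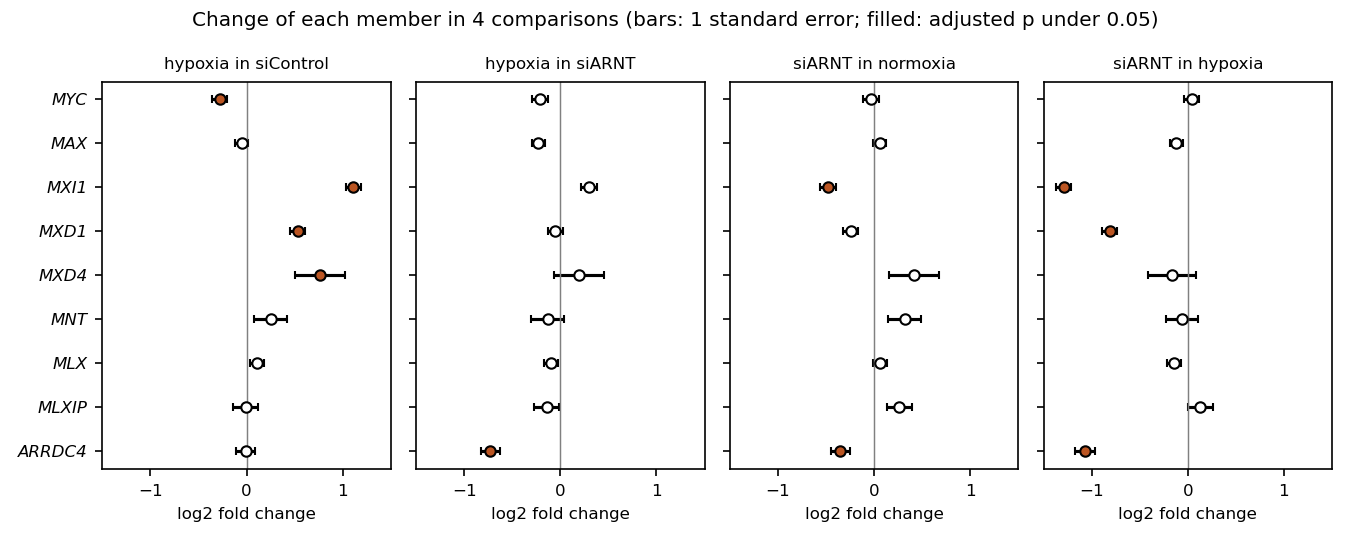
Log2 fold change of each member (horizontal axes) in the 4 comparisons, with bars of 1 standard error; filled points passed an adjusted p of 0.05. MXI1 is at 1.11 for hypoxia in siControl and at -1.29 for siARNT in hypoxia, and ARRDC4 is near 0 for hypoxia in siControl and at -0.73 for hypoxia in siARNT.

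MYC (ENSG00000136997.10; chr8:127735434-127741434, plus strand, GRCh38), the activator of the network, was measured at 120, 126 and 121 CPM in normoxia with siControl and at 98.1, 99.2 and 104 CPM in hypoxia with siControl, for replicates A, B and C. Every hypoxic siControl library was below every normoxic one. MYC fell to 0.823 of the normoxic level, a log2 change of -0.28 (SE 0.08, adjusted p = 0.0225, edgeR). The adjusted p rose to between 0.0545 and 0.0756 when any 1 of 5 of these 6 libraries was left out, all but hypoxia siControl C. With siARNT the levels were 115, 137 and 107 CPM in normoxia and 99.3, 106 and 106 CPM in hypoxia; the groups did not overlap, and the log2 change of -0.21 (SE 0.08) did not pass the test (adjusted p = 0.169). The hypoxia changes of MYC in both siRNAs differed by 0.08 (SE 0.11, adjusted p = 0.717), and siARNT left MYC at log2 differences of -0.03 in normoxia and 0.04 in hypoxia, both with SE 0.08. After correction of each library for GC content the first of these was -0.19 with an adjusted p of 0.00904.

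MAX (ENSG00000125952.14; chr14:65006174-65102695, minus strand), the obligate partner of MYC and of its antagonists, lay between 27.9 and 36.0 CPM over all 12 libraries. Its lowest group was hypoxia with siARNT, at 27.9, 29.3 and 31.2 CPM, below the 33.2, 36.0 and 34.9 CPM of normoxia with siARNT without overlap. That difference of -0.23 log2 units (SE 0.069) did not pass the test (adjusted p = 0.079), and it passed after correction for GC content, at -0.20 with an adjusted p of 0.016. Hypoxia in siControl and siARNT at either oxygen level gave MAX changes between -0.12 and 0.06, none past the threshold without correction for GC content. With the correction MAX passed for siARNT in hypoxia, at -0.15 with an adjusted p of 0.0299 (edgeR).

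MXI1 (ENSG00000119950.16; chr10:110207605-110287365, plus strand), an antagonist that pairs with MAX, had the largest change of any member in siControl cells. It was at 60.5, 55.8 and 57.5 CPM in normoxia with siControl and at 130, 119 and 126 CPM in hypoxia, a 2.16-fold rise (log2 change 1.11, SE 0.08, adjusted p = 3.52e-06, edgeR). With siARNT it was at 43.8, 37.9 and 42.7 CPM in normoxia and at 55.8, 51.3 and 46.1 CPM in hypoxia. These groups did not overlap either, but the change of 0.30 (SE 0.08) missed the threshold at an adjusted p of 0.0593. It passed in 6 of the 20 alternative fits, with a lowest adjusted p of 0.000454 and a highest of 0.267.

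Across siRNAs, MXI1 fell to 0.716 of its siControl level in normoxia (log2 change -0.48, SE 0.08, adjusted p = 0.00185) and to 0.408 in hypoxia (log2 change -1.29, SE 0.08, adjusted p = 5.09e-07). The hypoxia change was 0.81 log2 units smaller with siARNT (SE 0.11, adjusted p = 0.00219). In every alternative fit run, MXI1 passed for hypoxia in siControl, for siARNT at both oxygen levels and for the difference between the siRNAs. The MXI1 starts whose upstream sequences are printed above carry ACGTG or GCGTG cores, and the counts do not separate transcripts by start.

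MXD1 (ENSG00000059728.6; chr2:69897688-69942945, plus strand), another MAX-binding antagonist, known for its rise during differentiation, was at 114, 103 and 105 CPM in normoxia with siControl and at 166, 156 and 142 CPM in hypoxia. The groups did not overlap, and MXD1 rose 1.44-fold (log2 change 0.53, SE 0.078, adjusted p = 0.000481, edgeR). With siARNT it was at 89.3, 86.3 and 97.0 CPM in normoxia and at 93.5, 89.9 and 80.5 CPM in hypoxia, overlapping groups with a change of -0.05 (SE 0.078, adjusted p = 0.759). The hypoxia change differed between siRNAs by -0.57 (SE 0.11, adjusted p = 0.0147); without normoxia siControl C or without hypoxia siControl A this adjusted p was 0.0589 and 0.0523.

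In hypoxia, MXD1 fell to 0.569 of its siControl level with siARNT (log2 change -0.81, SE 0.079, adjusted p = 1.47e-05). In normoxia the siARNT libraries also lay below the siControl libraries without overlap, by -0.24 (SE 0.078), at an adjusted p of 0.0507. With the replicate letter as a block this adjusted p was 0.0351, while after the GC correction the change was -0.11 with an adjusted p of 0.203, and without normoxia siARNT B it was -0.21 with 0.13. Over the 12 libraries MXD1 and MXI1 followed each other with a Pearson r of 0.95 on log2(CPM + 1), a description of libraries that share the same groups. The MXD1 window held none of the motifs searched.

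MXD4 and MNT, the other antagonists, were expressed at lower levels and with a wider spread. MXD4 (ENSG00000123933.10; chr4:2247432-2262294, minus strand) was at 6.30, 7.17 and 5.85 CPM in normoxia with siControl and at 9.69, 13.8 and 9.36 CPM in hypoxia, without overlap, a rise of 0.76 log2 units (SE 0.26) with an adjusted p of 0.0493. Its adjusted p was above the threshold in 9 of 20 alternative fits, up to 0.167 without hypoxia siControl B, the highest library, where the change was 0.58. With siARNT it was at 6.93, 12.1 and 6.73 CPM in normoxia and at 7.52, 9.16 and 12.7 CPM in hypoxia, groups that overlap (log2 change 0.19, SE 0.26, adjusted p = 0.70). After the GC correction this change was 0.35 and passed, with an adjusted p of 0.0277. The difference between the siRNAs, -0.58 (SE 0.36), did not pass (adjusted p = 0.38), and it was -0.24 without normoxia siARNT B.

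MNT (ENSG00000070444.10, chr17:2384060-2401118, minus strand), which is expressed in resting and growing cells alike, lay between 11.5 and 20.1 CPM. It passed no test without correction for GC content. Its changes were 0.25 (SE 0.17) for hypoxia in siControl and 0.32 (SE 0.17) for siARNT in normoxia. The highest MNT library, at 20.1 CPM, was normoxia siARNT B, which was also the highest library for MLXIP and MLX and among the 3 highest for MXD4. These genes have a GC content of 61.4% (MNT), 57.9% (MLXIP), 57.6% (MXD4) and 51.8% (MLX), against 43.7% for MXI1, 42.7% for MXD1 and 43.4% for ARRDC4. After correction for GC content the siARNT value in normoxia was -0.21 for MNT and -0.10 for MLXIP, the opposite sign of the uncorrected values.

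The balance of antagonist and MYC transcripts is shown by their ratio per kilobase of exon in each library, given here without a test. The summed level of MXI1, MXD1, MXD4 and MNT was 0.832, 0.739 and 0.773 of that of MYC in normoxia with siControl, and 1.75, 1.64 and 1.51 of it in hypoxia. With siARNT the ratios were 0.68, 0.567 and 0.761 in normoxia and 0.884, 0.799 and 0.749 in hypoxia. All 3 hypoxic siControl libraries were above 1, and the 9 libraries of the other groups were below 1. Where a ratio stands relative to 1 depends on the exon lengths used. MXI1 alone was 0.309 ± 0.02 of MYC in normoxia with siControl (SD, n = 3) and 0.811 ± 0.046 in hypoxia. Transcript ratios carry no information on protein amounts.

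**Figure D3:**
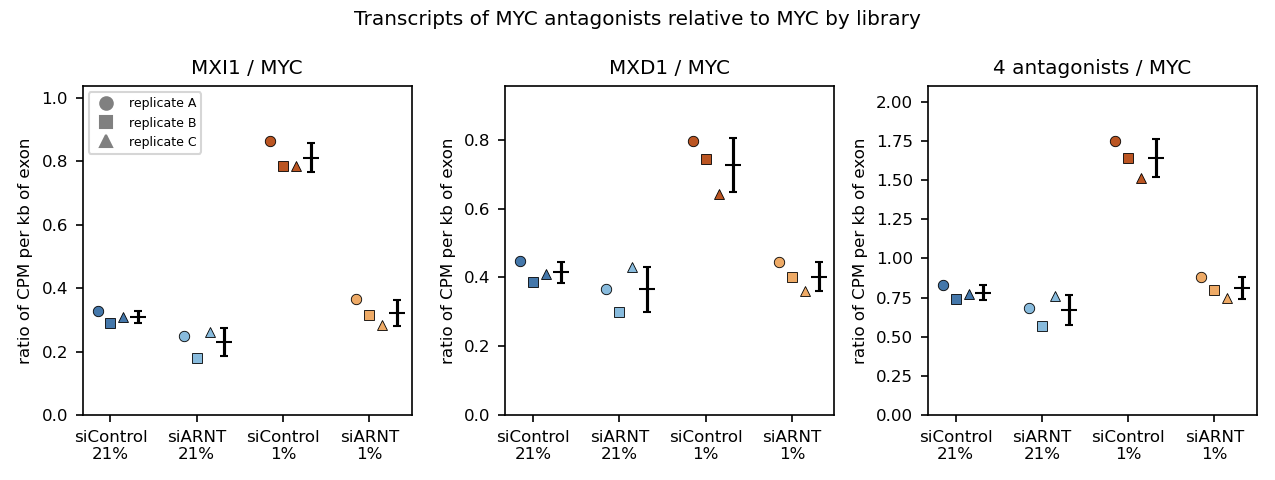
Ratio of transcript levels (CPM per kilobase of exon, vertical axes from 0) of MXI1, of MXD1 and of the sum of MXI1, MXD1, MXD4 and MNT to MYC, in each library by siRNA and oxygen; symbols are replicates and the bar is the mean ± SD (n = 3). The summed ratio lies between 1.51 and 1.75 in hypoxia with siControl and between 0.567 and 0.884 in the other groups.

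In the MLX branch neither the shared partner MLX nor the glucose sensor MLXIP passed a test without correction for GC content, and the target ARRDC4 did. MLX (ENSG00000108788.7; chr17:42567068-42573239, plus strand) lay between 48.5 and 59.3 CPM with changes between -0.14 and 0.11 in the 4 comparisons of group pairs. After the GC correction the difference with siARNT in hypoxia passed, at -0.17 with an adjusted p of 0.00261 against 0.175 without it, and MLX also passed for hypoxia in siControl, at 0.11 with 0.0434. MLXIP (ENSG00000175727.9; chr12:122078722-122147347, plus strand) lay between 65.3 and 106 CPM, with the highest value in normoxia siARNT B. Its change was -0.01 (SE 0.13, adjusted p = 0.959) for hypoxia in siControl and 0.26 (SE 0.13, adjusted p = 0.168) for siARNT in normoxia. With the GC correction MLXIP passed for hypoxia in siControl, at -0.13 with an adjusted p of 0.0322, which with MLX made 6 members called in that comparison. MLX shares 770 of its 4259 exonic bases with PSMC3IP on the opposite strand, and MNT 1065 of 8728 with AC006435.1. The library kit was stranded, but the counting setting is not given in the sources used here, so that reads of such partners cannot be told apart.

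ARRDC4 (ENSG00000140450.7; chr15:97960698-97973838, plus strand), the alpha-arrestin target of MLXIP and MLX, had a pattern of its own among the members. In siControl cells it was at 20.6, 17.7 and 20.3 CPM in normoxia and at 19.9, 17.4 and 20.7 CPM in hypoxia, overlapping groups with a log2 change of -0.01 (SE 0.097, adjusted p = 0.942). In siARNT cells it was at 15.8, 14.1 and 16.0 CPM in normoxia and at 9.64, 9.56 and 8.47 CPM in hypoxia. There it fell to 0.604 of the normoxic level (log2 change -0.73, SE 0.099, adjusted p = 0.00385), and the hypoxia changes differed between siRNAs by -0.71 (SE 0.14, adjusted p = 0.0155). Without normoxia siControl C or hypoxia siControl A the adjusted p of that difference was 0.0536 and 0.0628.

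siARNT lowered ARRDC4 in hypoxia to 0.477 of the siControl level (log2 change -1.07, SE 0.10, adjusted p = 1.12e-05), with no overlap, and this passed in all 19 alternative fits. In normoxia the siARNT libraries were also all below the siControl libraries (log2 change -0.35, SE 0.097, adjusted p = 0.0267); without normoxia siControl A, normoxia siControl C or normoxia siARNT B this adjusted p was 0.108, 0.103 and 0.073. The E-boxes of MLX, MNT and MXD4 are printed beside that of ARRDC4. In the fit without correction for GC content, these genes did not pass for siARNT at either oxygen level. With the correction MLX passed for siARNT in hypoxia, at -0.17 with an adjusted p of 0.00261 (edgeR). MNT passed for siARNT in normoxia in 1 of 19 alternative fits, with a lowest adjusted p of 0.0476 (edgeR). That was a fall, at -0.21 with the GC correction and the replicate block, against 0.32 without correction.

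Of the network's other genes, MGA, a MAX partner with a T-box domain, averaged 143 ± 5.24 CPM (SD, n = 3) in normoxia and 107 ± 14.6 CPM in hypoxia in siControl cells, a fall by 0.42 log2 units (SE 0.10, adjusted p = 0.00959). In siARNT cells its change was -0.07 (SE 0.10, adjusted p = 0.703), and the difference between the siRNAs did not pass (adjusted p = 0.195). MLXIPL, the relative of MLXIP also called ChREBP, rose in hypoxia from 1.74 ± 0.214 to 3.57 ± 1.07 CPM in siControl cells (log2 change 1.04, SE 0.33, adjusted p = 0.0369) and was at 3.86 ± 1.67 CPM with siARNT in normoxia (log2 change 1.15, SE 0.32, adjusted p = 0.0306). MXD3, a further antagonist, was higher with siARNT in normoxia, at 1.96 ± 0.878 against 0.803 ± 0.23 CPM (log2 change 1.30, SE 0.37, adjusted p = 0.0314, edgeR). Libraries of normoxia with siARNT ranged from 2.83 to 5.79 CPM for MLXIPL and from 1.22 to 2.93 CPM for MXD3. Values with the GC correction or without single libraries are not given here for either gene. MYCN and MYCL, relatives of MYC, averaged at most 0.0658 and 0.176 CPM in any group and were not tested. MYC was the member of that family that these cells expressed above 1 CPM.

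None of the 6 corepressor genes, SIN3A, SIN3B, HDAC1, HDAC2, SAP30 and NCOR1, passed the test for hypoxia with either siRNA in edgeR or DESeq2. Of all genes, 25.3% passed in siControl and 4.09% in siARNT cells in edgeR. At an unadjusted p under 0.05 there were 0 of the 6 in siControl and 2 in siARNT cells. HDAC1, a histone deacetylase, was higher with siARNT in hypoxia by 0.26 (SE 0.051, adjusted p = 0.00261). Of 15 genes that act with MYC or set its stability, 4 fell and 1 rose in hypoxia in siControl cells, 33.3% called against 25.3% of all genes. RUVBL1, an ATPase cofactor of MYC, fell by 0.61 (SE 0.062), CIP2A, which protects MYC from dephosphorylation, fell by 0.61 (SE 0.12), and SKP2, a ubiquitin ligase subunit that acts on MYC, fell by 0.45 (SE 0.056). PIM1, a kinase that works with MYC, rose by 0.84 (SE 0.096, adjusted p = 8.87e-05) and was lower with siARNT in hypoxia by 1.37 (log2 change -1.37, SE 0.097), at 26.4 ± 1.47 against 68.2 ± 5.96 CPM. It was the 1 gene of the 15 called lower there, and 4 were called higher. These were CIP2A by 0.46, SKP2 by 0.43, WDR5 by 0.41 and RUVBL1 by 0.38. That made 33.3% called with siARNT in hypoxia, against 29.1% of all genes (14.4% higher and 14.7% lower). In siARNT cells 0 of the 15 passed for hypoxia in edgeR or DESeq2, against 4.09% of all genes in edgeR, and 3 had an unadjusted p under 0.05.

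Genes that MYC activates for growth were measured as a list of 42, of which 41 were tested. In siControl cells 23 of them fell in hypoxia and 1 rose, 58.5% called against 25.3% of all genes (14.9% lower and 10.4% higher). The median log2 change was -0.52 against 0.02 for all genes. CTPS1, which makes CTP, fell from 66.2 ± 1.77 to 27.0 ± 1.15 CPM (log2 change -1.29, SE 0.06, adjusted p = 1.45e-07). ODC1, the first enzyme of polyamine synthesis, fell from 205 ± 0.744 to 94.5 ± 13.0 CPM (log2 change -1.12, SE 0.082, adjusted p = 3.8e-06), and SRM, spermidine synthase, fell by 0.79 (SE 0.22, adjusted p = 0.0233). The count of falls was 20 to 26 when 1 library was left out.

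In siARNT cells 6 of the 41 fell in hypoxia and 0 rose, against 1.89% lower and 2.21% higher of all genes. By DESeq2 or at an unadjusted p under 0.05, 0 rose as well. The median was -0.25 against -0.04 for all genes. The count of falls moved with the fit, to 11 with DESeq2, to 0 when only the groups compared were fitted and to 28 with the GC correction. It therefore sets no firm difference from siControl cells. Of the 41, 7 had a hypoxia change that differed between the siRNAs, all higher with siARNT, against 2.49% higher and 2.19% lower of all genes. CTPS1 (0.94, SE 0.083, adjusted p = 0.000103) and ODC1 (0.88, SE 0.11, adjusted p = 0.00133) were among them. With siARNT in hypoxia 20 of the 41 were higher and 1 was lower (median 0.31 against 0.02), against 14.4% higher and 14.7% lower of all genes. SRM was higher by 0.97 (SE 0.23), CTPS1 by 0.89 (SE 0.059) and ODC1 by 0.78 (SE 0.081). In normoxia siARNT gave 4 higher and 4 lower of the 41, 19.5% called against 20.2% of all genes. The count of higher genes was 1 to 7 when 1 library was left out (1 without normoxia siControl A or C) and 10 with the replicate block. MYC itself did not pass the test for siARNT at either oxygen level without correction for GC content. With the correction MYC was lower with siARNT in normoxia, at -0.19 with an adjusted p of 0.00904 (edgeR).

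**Figure D4:**
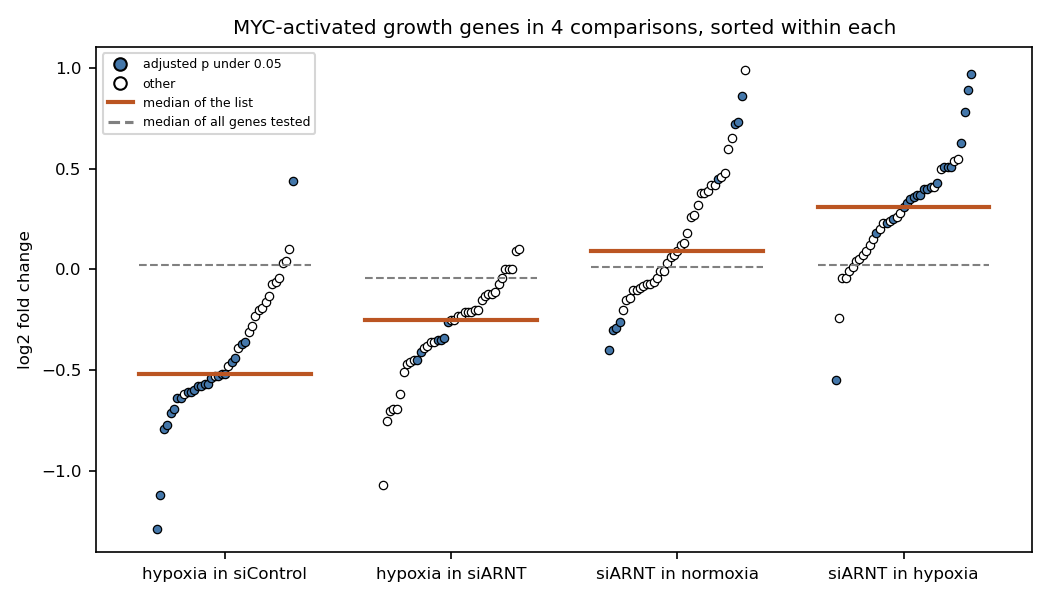
Log2 fold change (vertical axis) of the 41 tested MYC-activated growth genes in 4 comparisons, sorted within each; filled points passed an adjusted p of 0.05, the solid line is the median of the list and the broken line that of all genes tested. The list median lies at -0.52 for hypoxia in siControl, -0.25 for hypoxia in siARNT, 0.09 for siARNT in normoxia and 0.31 for siARNT in hypoxia.

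Of the 3 tested relatives of ARRDC4, 1 passed for hypoxia in siControl, against 25.3% of all genes, and 0 in siARNT cells, against 4.09%. The gene that passed was ARRDC3, an alpha-arrestin that directs receptor turnover. It rose in hypoxia in siControl cells from 144 ± 4.78 to 358 ± 28.0 CPM (log2 change 1.31, SE 0.073, adjusted p = 4.62e-07) and stood at 131 ± 8.84 and 126 ± 6.28 CPM with siARNT (log2 change -0.06, SE 0.072, adjusted p = 0.635). ARRDC2 did not pass for hypoxia and was higher with siARNT in hypoxia by 0.50 (SE 0.14, adjusted p = 0.0178). Among 8 tested genes named as further targets of MLXIP or its relative, 4 rose and 2 fell in hypoxia in siControl cells. Of all genes, 10.4% rose and 14.9% fell there. In siARNT cells 0 of the 8 passed for hypoxia by edgeR or DESeq2, and 1 had an unadjusted p under 0.05. The share of all genes called there was 4.09% in edgeR. HK2, hexokinase, rose by 1.12 (SE 0.054), PFKFB3, which stimulates glycolysis, by 0.85 (SE 0.097) and HBP1, a transcriptional repressor, by 0.35 (SE 0.075). HK2 also belongs to the list of targets of both MYC and HIF described further below. RGS16, a regulator of G protein signalling, fell by 0.95 (SE 0.28) and ELOVL6, a fatty acid elongase, by 0.37 (SE 0.08).

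The genes whose levels over the 12 libraries were most like those of a member were read from the 9855 genes averaging 5 CPM or more, as Pearson r of log2(CPM + 1). For MXI1 they were LDHA (r = 0.991), SPTLC2 and MAML2 (both 0.99). LDHA stood at 2640, 2050, 6930 and 2650 CPM in normoxia with siControl, normoxia with siARNT, hypoxia with siControl and hypoxia with siARNT. For ARRDC4 they were SMYD2 (0.977), IL20RA (0.971) and TNFRSF11A (0.966), with IL20RA at 38.6, 30.2, 35.3 and 22.1 CPM in the same order. For MYC they were HARS1 and COPS7A (both 0.966) and ELP6 (0.965). The 12 points share 4 groups and the same libraries, and the values describe likeness only.

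Splicing of the members was read from junction counts of the authors' splicing graph. Its coordinates come from a build that is not named and are printed as given. The MYC and MAX positions lie outside the GRCh38 spans given for these genes above, so they are not GRCh38 positions. The graph held 27 events in 6 members (MYC, MAX, MXI1, MXD1, MLX and MLXIP), of which 17 were tested. Of the other 10, 3 MAX events had a mean under 20 reads and 7 had a mean inclusion outside 2% to 98%. Among those tested no event passed in any of the 5 comparisons (limma, adjusted over 31694 events; smallest adjusted p 0.343). By unadjusted p under 0.05, 13 of the 85 tests passed, all of MAX and MYC events. These tests are not independent, because the MAX events share junctions and a pair of the MYC events share an inner acceptor. Called events over all genes were 0.0536% of those tested for hypoxia in siControl, 0.041% for hypoxia in siARNT, 0.183% for siARNT in normoxia, 0.366% for siARNT in hypoxia and 0.0189% for the difference between siRNAs. The depth was 20.5 to 422 junction reads per event and library, which limits the precision of each share.

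The tested MAX event with the most reads is an exon of 85 bases (contig 14, 65544062-65544146, minus strand). It was included in 18.3%, 29.6% and 30.1% of junction reads in normoxia with siControl and in 15.4%, 10.0% and 15.1% with siARNT. In hypoxia the values were 26.9%, 18.7% and 22.7% with siControl and 11.9%, 9.21% and 18.7% with siARNT. Inclusion was lower with siARNT by 1.16 log2 odds (SE 0.36, adjusted p = 0.343, limma) in normoxia and by 0.96 (SE 0.36, adjusted p = 0.426) in hypoxia, differences that did not pass. A pair of further MAX events with shifted ends of the same exon share its junctions and are no further evidence.

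The MYC transcript used an acceptor 3 bases inside the main one (contig 8, 128750497 against 128750494) in 24.1%, 23.5% and 21.5% of junction reads in normoxia with siControl, and group means stayed between 21.4% and 24.8%. An acceptor farther inside, at 128750538, was used in 4.06%, 2.84% and 3.95% in normoxia with siControl and in 6.93%, 8.79% and 6.74% with siARNT, without overlap (log2 odds difference 1.03, SE 0.35, adjusted p = 0.402, limma). In hypoxia it was used in 3.25%, 6.71% and 3.70% with siControl and in 2.68%, 2.90% and 4.35% with siARNT. Group means of exon inclusion were 95.6% to 95.8% in MXD1 (an exon of 30 bases), 88.5% to 91.3% in MLX (90 bases) and 2.22% to 2.81% in MXI1 (76 bases). Single libraries of MXI1 ranged from 0.488% to 6.72%, both within normoxia with siControl.

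**Figure D5:**
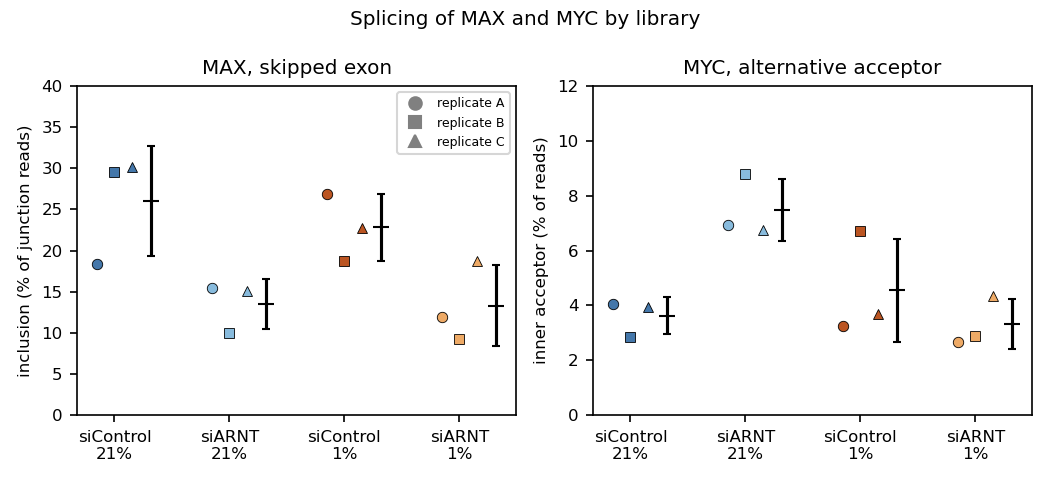
Inclusion of the 85-base exon of MAX and use of the inner acceptor of MYC, in percent of junction reads (vertical axes from 0), by library; symbols are replicates and the bar is the mean ± SD (n = 3). MAX inclusion averages 26.0% and 22.8% with siControl and 13.5% and 13.3% with siARNT, and in hypoxia the lowest siControl and the highest siARNT library meet at 18.7%. The inner acceptor of MYC averages 7.49% in normoxia with siARNT and 3.31% to 4.55% in the other groups.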

How the data were processed

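RNA of AsPC-1 cells was sequenced as stranded polyA libraries, per the labels' protocols. Per the submitters' processing notes, Trimmomatic, STAR 2.4.2a and GRCh38.p10 were used, although the splicing coordinates are not GRCh38 positions. The counting strand is not given in the sources used here. The authors deposited read counts per gene for each library, whose summary lines (22.71% to 25.2% of the total) were left out, and tables of splicing events with junction counts and the inclusion fraction of each event; for intron retention the authors deposited coverage of the intron, per the file headers.

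Counts were scaled by TMM, filtered by expression and tested with edgeR 4.0.16 (quasi-likelihood, robust, R 4.3.3) over all 12 libraries and 4 groups, with Benjamini-Hochberg adjustment over 16999 genes and a threshold of 0.05. Splicing was tested with limma 3.58.1 (trend, robust) on log2((inclusion + 0.5)/(exclusion + 0.5)) for events with a mean of at least 20 reads and a mean inclusion of 2% to 98%. Both were tested on simulated data. DESeq2 1.42.0, other scalings and filters, a GC correction (per-library loess of log2 CPM on GC), a replicate block and leaving out each library were the alternatives.

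Replicate letters paired the libraries for hypoxia in siControl (r of same-letter deviations 0.51, 0.74 and 0.49), a pairing read from the data. For siARNT in normoxia the same-letter r was 0.70, 0.88 and 0.39, but only letter B matched its own letter best. Named were the members, the check genes, and from each list the called genes with the 3 largest rises and falls for hypoxia in siControl and for siARNT in hypoxia, the 3 genes most like MYC, MXI1 and ARRDC4, and the 6 tested member events with the most reads. The members and lists were chosen with earlier results of these data known. TXNIP and protein sequences were not used here. 1 gene of the growth list is not reported here by name.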

Additional observations from a re-analysis of the deposited data

Results flagged for a closer look

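For 23 named genes the hypoxia change differed between siARNT and siControl cells by the test of the difference itself (edgeR quasi-likelihood, adjusted over all genes). Over all genes tested the share was 4.69%. Genes taken from the lists were named for large called changes for hypoxia in siControl or for siARNT in hypoxia. Both comparisons share the hypoxia siControl libraries with this test, so the number of differences is no independent result. Values are the log2 change in siARNT minus that in siControl. Among the members the difference was -0.81 for MXI1 (adjusted p = 0.00219), -0.57 for MXD1 (0.0147) and -0.71 for ARRDC4 (0.0155). In MXI1 and MXD1 it stands beside a rise in siControl cells, and in ARRDC4 beside a fall in siARNT cells.

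Genes that act with MYC or that MYC activates differed by -0.95 for PIM1, 0.43 for RUVBL1, 0.33 for SKP2, 0.94 for CTPS1 and 0.88 for ODC1. Glucose genes differed by -1.78 for SLC2A1, -1.02 for LDHA, -1.34 for PDK1, -1.06 for HK2 and -0.84 for PFKFB3. Genes that MYC represses differed by -2.32 for NDRG1 and 0.81 for NDRG2. The alpha-arrestin ARRDC3 differed by -1.38, and partners of TXNIP by -1.35 for DDIT4, -0.63 for NLRP3 and 0.42 for NEDD4L. The check genes differed by -3.02 for CA9, -2.57 for EGLN3, -0.77 for VEGFA and -1.58 for CYP1B1.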

How the results depend on the processing

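MXI1 passed for hypoxia in siControl under all 20 alternatives, and for siARNT at both oxygen levels and the difference between siRNAs under all 19, as did MXD1 and ARRDC4 for siARNT in hypoxia. Over the members, the settings other than leaving out a library gave 290 values that kept direction and side of the threshold, 17 that changed sign, 21 that gained a call and 5 that lost one. For all reversals and lost calls the cause was not tested. Genes called came to 7179 (GC correction) and 7426 (replicate block with GC correction) for hypoxia in siControl, against 4299. For hypoxia in siARNT, against 696, they came to 22 with only the groups compared, 136 with a block by well, 3618 and 3877 with the GC correction without and with the block. The GC pair was 5475 and 5871 for siARNT in normoxia, against 3431, and 7777 and 8056 for siARNT in hypoxia, against 4948. For the difference between siRNAs, against 797, it was 3041 and 3344, with 1495 under total count scaling and 373 with a block by well.

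Members called for hypoxia in siARNT, 1 in the design used, were 2 with DESeq2, total count scaling or the replicate block (MXI1 at 0.30, adjusted p = 0.0329), 0 with only the groups compared and 4 with the GC correction, with or without the block. For siARNT in normoxia, against 2, they were 1 without a filter or with only the groups compared and 4 with the block and GC correction; for siARNT in hypoxia, against 3, they were 5 with the GC correction, with or without the block. The replicate block changed 2 calls of members, MXI1 here and MXD1 in normoxia with siARNT (adjusted p = 0.0351), and genes called were 4740, 862, 4732, 5425 and 960 with it. Same-letter deviations had r = 0.91, -0.12 and -0.85 for hypoxia in siARNT and 0.68, -0.09 and -0.72 for siARNT in hypoxia, so no common pairing by letter was seen there. GC dependence also differed between hypoxia siARNT A, B and C, at -0.176, 0.019 and 0.238 log2 units per 10 GC points. Whether the letters mark shared wells was not tested.

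With the GC correction, with or without the block, values changed sign to 0.05 for ARRDC4 (hypoxia in siControl), 0.11 for MNT and 0.02 for MLXIP (hypoxia in siARNT), -0.21 for MNT, -0.02 for MLX and -0.10 for MLXIP (siARNT in normoxia), and 0.06 for MNT and 0.15 for MLXIP (difference between siRNAs). MNT was at 0.03 for siARNT in hypoxia under total count scaling, and inclusion of the MAX exon at 0.18 for hypoxia in siARNT with a pseudocount of 5.

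Leaving out 1 library gave 2 to 4, 1 to 2, 1 to 3, 3 and 1 to 3 members called for hypoxia in siControl, then in siARNT cells, for siARNT at 21% O2, at 1% O2, and for the difference. In that order, genes called ranged from 2873 to 5242, 129 to 707 (lowest without hypoxia siARNT B), 1571 to 4148, 3537 to 5847 and 272 to 1188. Values that changed sign ranged, for hypoxia in siControl, from -0.06 to 0.05 for MLXIP and -0.08 to 0.07 for ARRDC4. For hypoxia in siARNT they ranged from -0.08 to 0.01 for MXD1, -0.05 to 0.52 for MXD4, -0.25 to 0.10 for MNT, -0.25 to 0.04 for MLXIP and -0.34 to 0.22 for the MAX exon. For siARNT in normoxia they ranged from -0.15 to 0.04 for MYC and -0.02 to 0.11 for MLX, and for siARNT in hypoxia from -0.39 to 0.02 for MXD4 and -0.17 to 0.07 for MNT. For the difference they ranged from -0.23 to 0.06 for MLXIP and -0.11 to 0.51 for the MAX exon. Counts of 315 to 704 reads limit MXD4, the least counted member.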

Other observations

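Of 8 glucose and iron genes known as targets of both MYC and HIF, 7 rose and 1 fell in hypoxia in siControl cells (edgeR, adjusted over all genes), against 10.4% higher and 14.9% lower of all genes; DESeq2 called the 7 rises and not the fall. SLC2A1, the main glucose transporter, rose from 224 ± 15.3 to 861 ± 146 CPM (SD, n = 3), a log2 change of 1.94 (SE 0.16). LDHA, lactate dehydrogenase, rose by 1.39 (SE 0.072) and ALDOA, aldolase, by 1.60 (SE 0.34), while TFRC, the transferrin receptor, fell by 0.26 (SE 0.086, adjusted p = 0.0477). With siARNT in hypoxia 5 of the 8 were lower and TFRC was higher by 0.46 (SE 0.086). That made 75.0% called, against 29.1% of all genes (14.4% higher and 14.7% lower).

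Of 6 genes that MYC represses, NDRG1 rose in hypoxia in siControl cells by 3.09 (SE 0.11), to 1150 ± 85.2 CPM, and NDRG2 fell by 0.56 (SE 0.13), to 1.69 ± 0.218 CPM. With siARNT in hypoxia NDRG2 and GADD45A were higher, by 0.97 (SE 0.13) and 0.61 (SE 0.095). NDRG1 and the cell cycle inhibitors CDKN1B and CDKN2B were lower there, with log2 changes of -2.51, -0.68 and -0.58. Of the 6, 33.3% were called for hypoxia in siControl and 83.3% for siARNT in hypoxia, against 25.3% and 29.1% of all genes. Among 7 genes whose proteins bind TXNIP or are linked to it, DDIT4, an inhibitor of mTORC1, rose in hypoxia in siControl cells by 1.45 (SE 0.14), NLRP3 by 1.38 (SE 0.11) and SLC2A1 as above. TXN, thioredoxin, fell by 0.31 (SE 0.064) and NEDD4L, a ubiquitin ligase, by 0.27 (SE 0.069). Called in that comparison were 71.4% of the 7, against 25.3% of all genes.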
